A study of Mus musculus with 10 samples.

Results

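Whether Sertoli cells that lose *Rnf20* gain genes of the ovarian granulosa cell was examined with 7 genes, *Foxl2*, *Esr1*, *Esr2*, *Cyp19a1*, *Wnt4*, *Rspo1* and *Fst*. They were chosen by name as granulosa fate genes that *Sox9* and *Dmrt1* are known to oppose, at a time when earlier results of these data were known. All 7 were listed, among 17816 genes in Sertoli cells at 7 days after birth and among 20007 genes in adult testis. At day 7, 4 of the 7 passed the filter on low values, which asked that a group's worth of samples reach 0.5 FPKM (fragments per kilobase of gene, scaled to the depth of the library), and in adult testis 5 did.

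Sertoli cells of the testis and granulosa cells of the ovary are the supporting cells of the gonads and arise from a common precursor in the fetus. On the testis side, SOX9 and later DMRT1 hold the Sertoli cell fate. On the ovary side, the secreted factors R-spondin 1 and WNT4 stabilise beta-catenin, follistatin binds activin, and the forkhead factor FOXL2 acts with the estrogen receptors ESR1 and ESR2, whose ligand is made by aromatase, the product of *Cyp19a1*. Loss of DMRT1 from Sertoli cells after birth is known to let FOXL2 and other granulosa cell genes appear. The group is therefore a way to read a change of Sertoli cell fate, although *Esr1*, *Wnt4*, *Rspo1* and *Fst* are also known from other cells of the testis and *Cyp19a1* is also known from Leydig cells and germ cells.

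RNA was sequenced from 4 samples of Sertoli cells taken on day 7, of which 2 came from Rnf20 Flox/Flox mice, which the labels call WT, and 2 from Amh-Rnf20-/- mice, in which Cre driven by the *Amh* promoter removes a floxed stretch of *Rnf20*, the E3 ligase of histone H2B mono-ubiquitination. The cells were passaged in culture and the adherent ones were used. The titles and the extraction text give day 7 for these samples, while the growth field of every sample names adult tissue. A second table holds 6 samples of adult testis, 3 labelled WT and 3 labelled RNF20 conditional knockout, whose age in days and control allele were not given in the sources used here. The methods state 3 individuals for each day 7 group, of which 2 samples were analysed, but the labels tie no sample of either table to an animal. The p-values therefore measure the spread between these samples, which may be technical.

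Total estimated counts per sample ran from 17477268 to 17705347 at day 7 and from 15431912 to 16574144 in adult testis. The level of *Rnf20* was 16.64 and 16.01 FPKM in Rnf20 Flox/Flox and 10.25 and 12.58 in Amh-Rnf20-/- cells (log2 fold change −0.49 with a standard error of 0.12, edgeR adjusted p = 0.222). In adult testis it was not lower in the samples labelled knockout (4.89, 3.32 and 4.09 against 9.16, 5.76 and 9.85 FPKM, log2 fold change 0.12, edgeR adjusted p = 0.688). It was called higher with total-count scaling (0.97, edgeR adjusted p = 0.0168) and with limma on log2(FPKM + 0.1) (0.97, adjusted p = 0.0152), and counts over the whole gene in whole testis do not check the labels. The day 7 samples held markers of other cells: the summed FPKM of 6 peritubular myoid cell markers was 2030 and 1911 in the Rnf20 Flox/Flox cells against 3553 and 3604 in the Amh-Rnf20-/- cells, while that of 15 Sertoli cell markers was 1640 and 1471 against 916 and 1284. The first sample labelled knockout stood apart in both tables. Among the adult knockout samples it had the lowest level of *Dmrt1*, 0.57 FPKM against 17.27 and 24.91. It also had the lowest summed Sertoli cell markers of these samples, 4791 against 9358 and 9910, where the samples labelled WT had 2608, 2155 and 1687. The fits of single genes, the ratios to markers and the ratios of summed counts were therefore also computed without the first knockout sample.

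The genes lie on 5 chromosomes of GRCm38.p6, at 9:98955607-98958126 (*Foxl2*, Entrez 26927), 10:4611989-5005633 (*Esr1*, 13982), 12:76120419-76177259 (*Esr2*, 13983), 9:54165937-54268164 (*Cyp19a1*, 13075), 4:137277635-137299501 (*Wnt4*, 22417), 4:124986401-125009102 (*Rspo1*, 192199) and 13:114452262-114458989 (*Fst*, 14313). RefSeq promoter windows on that build, from 250 bases before to 50 bases after each start, were matched for 6 of the 7 genes, with 9 windows in all. The windows of *Foxl2*, which stayed at a few counts, of *Rspo1*, whose differences were the largest at day 7, and of the most downstream of the 3 listed starts of *Cyp19a1*, which went the other way in adult testis, are shown because these genes carry the contrast among the members. Capitals mark matches on either strand to any of 5 motifs. The SOX core was searched as ACAAT on both strands. The DMRT1 core was searched as ACATTGT on both strands, and each match to it also holds a match to the SOX core. The forkhead core was searched as TAAACA on both strands. The site of SF1, the product of *Nr5a1*, was searched as AAGGTCA on both strands. The TATA box was searched as TATAAA on both strands.
*Foxl2*, chr9:98955357-98955656, plus strand: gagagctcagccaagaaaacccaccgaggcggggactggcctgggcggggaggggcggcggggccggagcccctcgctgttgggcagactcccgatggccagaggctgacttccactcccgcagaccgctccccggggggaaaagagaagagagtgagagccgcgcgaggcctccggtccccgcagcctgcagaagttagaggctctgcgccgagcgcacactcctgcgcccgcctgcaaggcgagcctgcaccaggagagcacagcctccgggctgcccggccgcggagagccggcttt
*Rspo1*, chr4:124986180-124986479, plus strand: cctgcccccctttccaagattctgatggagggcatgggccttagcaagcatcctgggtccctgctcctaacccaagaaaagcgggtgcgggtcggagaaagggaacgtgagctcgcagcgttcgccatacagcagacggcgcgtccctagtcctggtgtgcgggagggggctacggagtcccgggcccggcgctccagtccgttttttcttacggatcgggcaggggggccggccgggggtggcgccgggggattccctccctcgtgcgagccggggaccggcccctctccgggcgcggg
*Cyp19a1*, chr9:54193694-54193993, minus strand: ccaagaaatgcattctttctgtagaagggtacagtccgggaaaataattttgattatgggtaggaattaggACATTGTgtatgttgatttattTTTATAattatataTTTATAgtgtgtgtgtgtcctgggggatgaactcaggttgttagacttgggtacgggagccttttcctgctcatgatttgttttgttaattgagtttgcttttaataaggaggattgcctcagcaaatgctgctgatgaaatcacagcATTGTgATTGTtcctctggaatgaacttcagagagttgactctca

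The *Foxl2* and *Rspo1* windows are rich in CG, with 27 and 29 CG pairs against a median of 7 over 32851 windows of the same length, and hold none of the 5 motifs. The *Cyp19a1* window holds 2 CG pairs. It has 1 DMRT1 core, beginning 179 bases before the start, within which 1 of its 3 SOX cores lies, and 2 matches to the TATA box, 157 and 143 bases before the start. Of the other two windows of *Cyp19a1*, the one at chr9:54228865-54229164 holds a SOX core 126 bases before the start and overlapping matches to the TATA box 31 and 29 bases before it, and the other holds no match. The windows of *Esr1*, *Esr2* and *Wnt4* hold none of the 5 motifs either. Among all windows, 31% hold the SOX core, 2.96% the DMRT1 core, 13.4% the forkhead core, 4.72% the SF1 site and 13.6% the TATA box. A match of letters is a description and not a binding site.

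In Sertoli cells at day 7 no granulosa fate gene passed the test, and *Foxl2* was not higher in the Amh-Rnf20-/- samples. Among the 4 members that passed the filter, *Rspo1* and *Esr1* had the largest positive differences, *Fst* was higher mainly in 1 sample, and *Wnt4* was lower. Of the 4 members tested, 0 had an adjusted p-value under 0.05 (edgeR over 12880 genes), where the background over all genes was 0% in each direction. At an unadjusted p-value under 0.05, 2 members, *Esr1* and *Rspo1*, were higher, against 8.52% of all genes higher and 6.99% lower. On TMM-scaled counts 3 of the 4 lay higher in both Amh-Rnf20-/- samples and 1 lay lower in both, against 24.8% and 26.1% of all genes. DESeq2 called 1 member, *Rspo1*, and 581 genes in all. The calls turned on the Amh-Rnf20-/- samples: edgeR called 2 members, *Rspo1* higher and *Wnt4* lower, without the first of them (2757 genes in all) and all 4 without the second (5136 genes).

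*Foxl2*, the forkhead factor that holds the granulosa cell fate, had 0.13 and 0.18 FPKM in the Rnf20 Flox/Flox cells and 0.18 and 0.05 in the Amh-Rnf20-/- cells. These values rest on 5, 7, 7 and 2 counts, and the groups overlap. The ratio of summed counts, scaled by TMM, was 0.769 with an exact 95% interval of 0.286 to 1.99, which covers counting error only. Without the first Amh-Rnf20-/- sample it was 0.339 (0.0368 to 1.52). The interval leaves out the spread between samples, which held 7 and 2 counts in the Amh-Rnf20-/- cells, so it does not bound the difference between the groups.

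*Cyp19a1*, the aromatase gene, had a single count in all 4 samples, in the second Rnf20 Flox/Flox sample (0.03 FPKM). *Esr2*, the estrogen receptor that is abundant in granulosa cells, had 0.11 and 0.08 against 0.23 and 0.17 FPKM, from 6, 4, 12 and 9 counts. Both Amh-Rnf20-/- samples lay above both controls for *Esr2*, but the interval of the ratio of summed counts, 2.15 (0.971 to 5.12), included no change. *Esr1*, the receptor known mainly from the theca and interstitial cells of the gonads, had 0.82 and 0.69 against 2.03 and 1.24 FPKM, and its groups did not overlap. The difference was 1.08 on the log2 scale (standard error 0.32, edgeR adjusted p = 0.26) and 0.65 without the first Amh-Rnf20-/- sample.

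Of the secreted factors, *Rspo1* had 0.88 and 0.70 FPKM in the Rnf20 Flox/Flox cells and 7.06 and 2.22 in the Amh-Rnf20-/- cells. The groups lay apart, and the first Amh-Rnf20-/- sample lay far above the second. The log2 fold change was 2.60 (standard error 0.66, edgeR adjusted p = 0.221, DESeq2 adjusted p = 0.00495), and it was 1.52 (edgeR adjusted p = 0.0129) without the first Amh-Rnf20-/- sample, a fit in which the lone sample is assumed to vary like the controls. *Wnt4* was the most abundant member in the controls, with 17.78 and 17.33 FPKM against 9.60 and 14.19, and the Amh-Rnf20-/- samples lay below both controls (log2 fold change −0.52, standard error 0.20, edgeR adjusted p = 0.325; −0.27 without the first Amh-Rnf20-/- sample). *Fst*, which encodes the activin antagonist follistatin, had 13.75 and 12.27 against 31.62 and 14.32 FPKM. The second Amh-Rnf20-/- sample was close to the controls, and the difference of 0.86 on the log2 scale (standard error 0.40, edgeR adjusted p = 0.387) became 0.17 without the first.

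**Figure D1:**
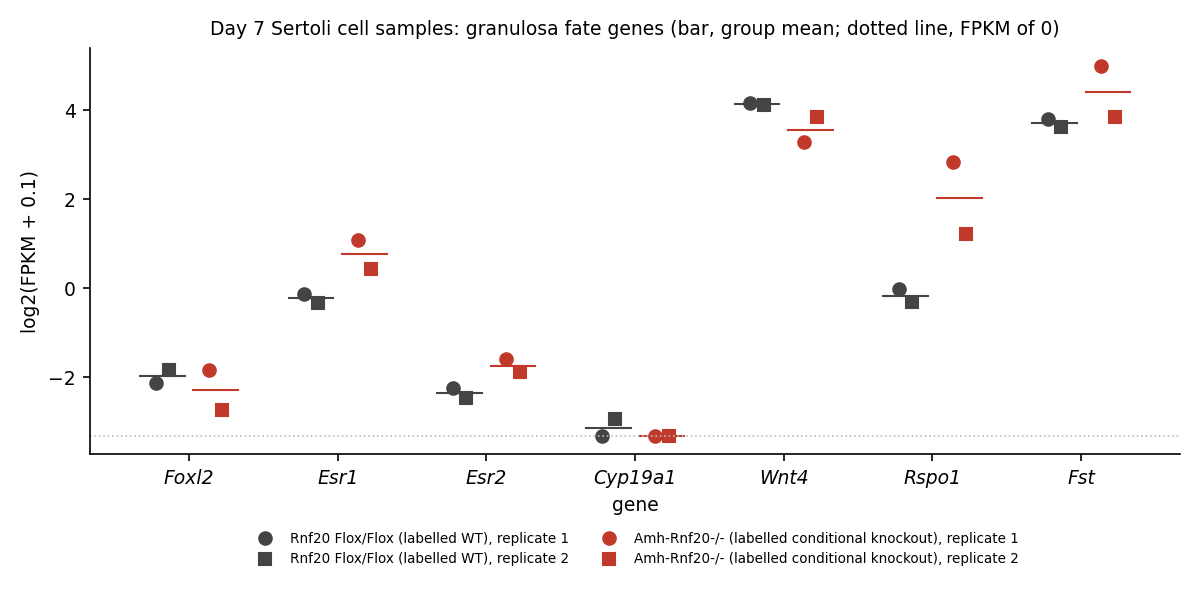
Levels of the 7 granulosa fate genes in the 4 Sertoli cell samples at day 7, as log2(FPKM + 0.1) on the vertical axis, with a point for each sample and a bar for each group mean. *Rspo1*, *Esr1*, *Fst* and *Esr2* lie higher in both Amh-Rnf20-/- samples, *Wnt4* lies lower in both, and *Foxl2*, *Esr2* and *Cyp19a1* stay under 0.25 FPKM in every sample.

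*Sox9* and *Dmrt1* lay lower in both Amh-Rnf20-/- samples, further in the first. *Sox9* had 41.84 and 39.43 FPKM against 10.19 and 25.66 (log2 fold change −1.14, standard error 0.44, edgeR adjusted p = 0.329), and *Dmrt1* had 31.74 and 32.01 against 8.12 and 27.16 (−0.82, standard error 0.56, edgeR adjusted p = 0.539). DESeq2 called *Sox9* (adjusted p = 0.0439) but not *Dmrt1* (adjusted p = 0.853). Without the first Amh-Rnf20-/- sample the differences were −0.63 for *Sox9* and −0.20 for *Dmrt1*, and without the second they were −1.95 and −1.93. Of 15 Sertoli cell markers, 9 of the 13 tested lay lower in both Amh-Rnf20-/- samples and 1 lay higher, with a median log2 fold change of −0.49. Over all tested genes, 26.1% lay lower in both Amh-Rnf20-/- samples and 24.8% higher. All 6 peritubular myoid cell markers, all 5 stromal fibroblast markers and 3 of 4 tested Leydig cell markers lay higher in both, with medians of 0.98, 0.78 and 0.91. The summed FPKM of the fibroblast markers was 1821 and 1899 against 3179 and 2718, and that of the Leydig cell markers 149 and 156 against 301 and 205. Germ cell markers lay on the same side as these 2 genes: all 6 spermatogonium markers and all 3 tested spermatocyte markers lay lower in both Amh-Rnf20-/- samples, with medians of −0.64 and −0.60. The summed FPKM of the spermatogonium markers was 193 and 184 against 136 and 129. *Dmrt1* is also known from spermatogonia, and the part of these cells in its lower level was not tested. In these bulk samples fewer cells of a type and less RNA per cell cannot be told apart.

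Set against the mean log2 level of the Sertoli cell markers in the same sample, *Rspo1* was higher by 2.75 and *Esr1* by 1.54 in the Amh-Rnf20-/- samples, and *Fst* by 1.26, while *Wnt4* differed by −0.03. The first Amh-Rnf20-/- sample carried much of this: without it *Rspo1* was higher by 1.38, *Esr1* by 0.64 and *Fst* by 0.13, and *Wnt4* differed by −0.31. *Fst* lay at 2.21 and −0.05 in the Amh-Rnf20-/- samples and at −0.18 in both controls. An exact permutation test over samples (two-sided) gave p = 0.333 for the first 3, the smallest that 2 samples against 2 allow, and p = 1 for *Wnt4*. Of the 4 tested members 3 lay higher in both Amh-Rnf20-/- samples on this scale and 0 lower, where 26.3% of all genes lay higher and 2.61% lower. Against the mean of the Leydig cell, peritubular myoid and fibroblast markers, a comparison added after the values were seen, *Rspo1* was higher by 1.27, *Esr1* differed by 0.05, *Fst* by −0.22 and *Wnt4* by −1.52 (exact permutation p = 0.333, 1, 1 and 0.333). *Rspo1* was the member that lay above both controls on that scale, as did 1.24% of all genes, with −3.00 and −4.29 against −4.81 and −5.02, and *Wnt4* lay below both, as did 93.1%. Without the first Amh-Rnf20-/- sample the differences on this scale were 0.62 for *Rspo1*, −0.11 for *Esr1*, −0.63 for *Fst* and −1.07 for *Wnt4*.

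The other genes of these pathways lay on both sides of the controls at day 7. Over all genes, 24.8% lay higher in both Amh-Rnf20-/- samples and 26.1% lower, and the lists were not tested against these shares. In the 5 companion lists edgeR called 0 genes at an adjusted p-value under 0.05, as it called 0% of all genes, so these counts say nothing about the lists. Of 8 tested granulosa and pre-granulosa genes, 1 lay higher in both Amh-Rnf20-/- samples and 4 lay lower (median log2 fold change −0.29), among them *Foxo1* (−0.42, adjusted p = 0.222) and *Amhr2*, the receptor of anti-Müllerian hormone (−1.19, adjusted p = 0.322; −0.67 without the first Amh-Rnf20-/- sample). Of 14 WNT and R-spondin signalling genes 5 lay higher and 4 lower (median 0.02), with the R-spondin receptor *Lgr4* at −0.47 (standard error 0.08, adjusted p = 0.158) and the WNT feedback gene *Nkd1* at 1.53 (standard error 0.32, adjusted p = 0.178), and DESeq2 called 3 of them higher and 1 lower, against 388 and 193 of all 12880 genes. Of 9 genes of the activin and follistatin axis 1 lay higher and 2 lower (median −0.06), the latter being *Fstl3* (−0.85, adjusted p = 0.245) and the inhibin subunit gene *Inha* (−1.40, adjusted p = 0.344). DESeq2 called *Fstl3* (adjusted p = 0.0117), and with the first Amh-Rnf20-/- sample left out *Fstl3* was at −0.55 and *Inha* at −0.78. Of 10 genes of estrogen synthesis and action 1 lay higher, the membrane estrogen receptor gene *Gper1* (0.96, adjusted p = 0.37; 0.42 without the first Amh-Rnf20-/- sample), and 4 lower, one being the coactivator gene *Ncoa1* (−0.22, adjusted p = 0.364), with a median of −0.10. Of 13 male pathway genes 3 lay higher and 8 lower (median −0.43), with *Wt1* at −0.49 (adjusted p = 0.194; 0.0265 with DESeq2) and *Amh* at −0.69 (adjusted p = 0.245). The largest difference of the list was that of *Ptgds*, the prostaglandin D synthase gene, which went the other way (15.82 and 12.01 against 94.93 and 26.57 FPKM, log2 fold change 2.17, edgeR adjusted p = 0.268, DESeq2 adjusted p = 0.0028; 0.97 without the first Amh-Rnf20-/- sample).

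In adult testis 4 granulosa fate genes rose and 1 fell in the samples labelled knockout, while *Foxl2* and *Esr2* did not pass the filter on low values. *Esr1*, *Wnt4*, *Rspo1* and *Fst* were higher by between 2.87 and 3.86 on the log2 scale, and *Cyp19a1* was lower by 6.29. The 4 rises and the fall had an adjusted p-value under 0.05 (edgeR over 15919 genes), where 40.9% of all genes rose and 40.6% fell at that threshold, so a call by itself says little about a member. At the thresholds of the study, a more than 2-fold change with an adjusted p-value under 0.001, 3 members rose (*Esr1*, *Wnt4* and *Fst*) and 1 fell, against 23% and 23.7% of all genes. Groups did not overlap for any of the 5, as was so, on TMM-scaled counts, for 42.4% of all genes upward and 43.1% downward. *Wnt4* and *Fst* reached 0.5 FPKM only in samples labelled knockout and *Cyp19a1* only in those labelled WT, so the filter itself favoured members that differ. Some companion genes described below were favoured in the same way. *Nppc*, *Fzd2*, *Axin2*, *Inhba* and *Gper1* reached 0.5 FPKM only in samples labelled knockout, and *Lgr5* and *Irx5* only in those labelled WT. Total-count scaling moved the median over all tested genes from 0.01 to 0.87 on the log2 scale, with 8615 genes called higher and 4775 lower in place of 6503 and 6466, and the 5 members kept their directions and calls.

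*Esr1* had 0.46, 0.52 and 0.57 FPKM in the samples labelled WT and 15.02, 12.73 and 8.62 in those labelled knockout. The groups were far apart, and the fold change rested on no single sample (log2 fold change 3.69, standard error 0.30, adjusted p = 8.99e-05; 3.61 without the first knockout sample). *Esr2* had 0.10, 0.06 and 0.04 against 0, 0.32 and 0.17 FPKM, from 10 counts in the controls and 24 in the samples labelled knockout. The first knockout sample held no count of *Esr2*, the groups overlap, and the ratio of summed counts was 1.37 (exact 95% interval 0.632 to 3.21).

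*Foxl2* had 0.05, 0 and 0 FPKM in the samples labelled WT and 0.03, 0.14 and 0.06 in those labelled knockout, from 2 and 8 counts in all. The groups overlap, and the interval of the ratio of summed counts, 2.29 (0.456 to 22.1), leaves a wide range at this depth. In edgeR without a filter on low values the fitted difference was 1.12 on the log2 scale (standard error 1.23, adjusted p = 0.432). The sample with the lowest *Dmrt1* and *Sox9* levels, the first labelled knockout, held 1 count of *Foxl2*. It also had the lowest summed Sertoli cell markers of the samples labelled knockout, 4791 FPKM against 9358 and 9910. The level of *Foxl2* per Sertoli cell cannot be read from bulk tissue.

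*Cyp19a1* had 2.43, 2.49 and 4.39 FPKM in the samples labelled WT and 0.09, 0.03 and 0.09 in those labelled knockout. The counts were 88, 91 and 157 against 3, 1 and 3, so the aromatase transcript nearly disappeared from every knockout-labelled sample. The ratio of summed counts, scaled by TMM, was 84-fold lower, with an exact 95% interval of 40.3 to 210 that covers counting error only (log2 fold change −6.29, standard error 0.49, adjusted p = 8.45e-05, edgeR). Spermatid markers, among them the protamine gene *Prm1*, fell with it: the summed FPKM of 5 markers was between 120189 and 188562 in the samples labelled WT and between 1.51 and 60.4 in those labelled knockout. All 6 Leydig cell markers rose in the same samples, with a median log2 fold change of 3.92, where 40.9% of all genes rose and 40.6% fell. Whether a change in spermatids or in Leydig cells accounts for the fall of *Cyp19a1* was not tested.

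Of the secreted factors, *Rspo1* had 0.61, 0.50 and 0.82 FPKM against 25.89, 8.93 and 8.93 (log2 fold change 3.67, standard error 0.59, adjusted p = 0.00141, edgeR; 3.03 without the first knockout sample). The first knockout sample lay far above the others, and all 3 lay above the controls. *Wnt4* had 0.07, 0.05 and 0.07 against 2.50, 1.19 and 1.27 FPKM, with 4, 3 and 4 counts in the controls. Its ratio of summed counts was 14.6 (exact 95% interval 8.04 to 29.6), and its fitted difference of 3.86 on the log2 scale (standard error 0.49, edgeR adjusted p = 0.000526) was 3.50 without the first knockout sample. *Fst* had 0.31, 0.32 and 0.16 against 3.98, 3.21 and 2.95 FPKM, and the knockout-labelled samples lay close together (log2 fold change 2.87, standard error 0.36, adjusted p = 0.000499, edgeR; 2.85 without the first).

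**Figure D2:**
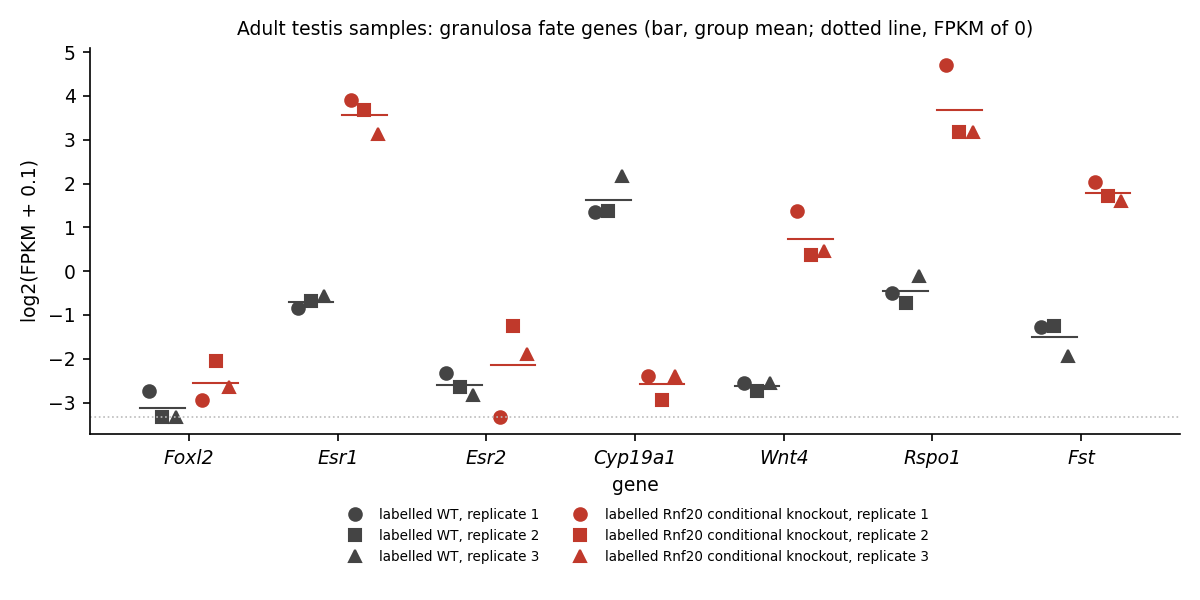
Levels of the 7 granulosa fate genes in the 6 adult testis samples, as log2(FPKM + 0.1) on the vertical axis, with a point for each sample and a bar for each group mean. *Esr1*, *Wnt4*, *Rspo1* and *Fst* lie higher in all 3 samples labelled knockout, *Cyp19a1* lies lower in all 3, and *Foxl2* and *Esr2* overlap between the groups.

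**Figure D3:**
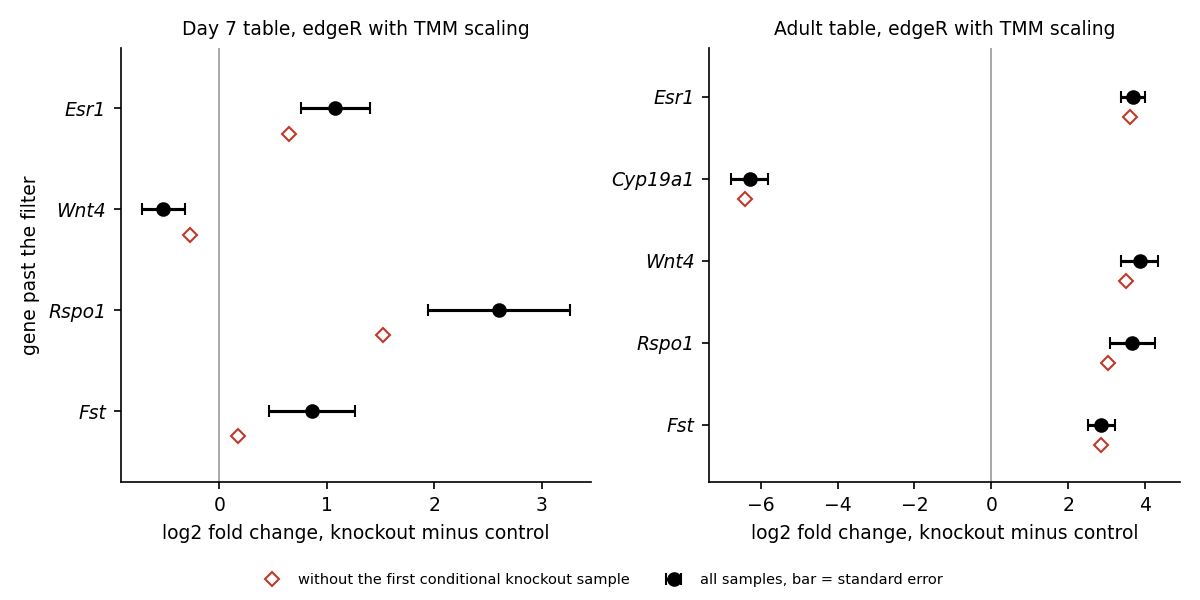
Log2 fold changes from edgeR for the 4 members tested at day 7 and the 5 tested in adult testis, with bars of 1 standard error and open diamonds for the fit without the first knockout sample of the table. At day 7 every estimate shrinks toward 0 without that sample, and in adult testis the estimates keep between 2.85 and 3.61, or −6.40 for *Cyp19a1*.

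With TMM scaling *Sox9* and *Dmrt1* did not pass the test in adult testis, and their levels differed widely among the samples labelled knockout. Total-count scaling called *Sox9* higher (2.11, edgeR adjusted p = 0.0451) but not *Dmrt1* (1.18, edgeR adjusted p = 0.321). *Sox9* had 2.34, 1.37 and 1.77 FPKM in the samples labelled WT and 1.20, 9.86 and 12.65 in those labelled knockout (log2 fold change 1.23, standard error 0.75, edgeR adjusted p = 0.174). *Dmrt1* had 6.62, 6.18 and 6.07 against 0.57, 17.27 and 24.91 (0.28, standard error 1.01, edgeR adjusted p = 0.805). Both were above the controls in the second and the third knockout sample, where *Rspo1*, *Wnt4*, *Esr1* and *Fst* were also above the controls, and below them in the first, where those 4 genes were highest. Without the first sample *Sox9* rose by 1.86 and *Dmrt1* by 0.98 (edgeR adjusted p = 2.6e-05 and 0.000322). The first sample also had the highest summed level of stromal fibroblast markers, 3291 FPKM against 1273 and 1236, and the lowest of spermatogonium markers, 47.6 against 281 and 399.

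Markers of Leydig cells, fibroblasts, macrophages and endothelial cells were far higher in the samples labelled knockout. The summed FPKM of Leydig cell markers was between 3997 and 5602 in the samples labelled WT and between 63070 and 87434 in those labelled knockout, and that of the fibroblast markers between 37.8 and 49.5 against between 1236 and 3291. All 5 fibroblast, all 5 macrophage and all 5 endothelial cell markers rose, with medians of 4.53, 3.64 and 3.19, where 40.9% of all genes rose and 40.6% fell. Of 6 peritubular myoid cell markers 4 rose, and *Actg2* fell by 7.73 (adjusted p = 2.9e-05, edgeR), from between 255.04 and 335.45 FPKM to at most 3.60. The summed FPKM of the peritubular myoid cell markers overlapped, with between 293 and 366 in the samples labelled WT and between 191 and 395 in those labelled knockout. Of 15 Sertoli cell markers 6 rose and 2 fell, *Rhox5* and *Tsx*, and without the first knockout sample 12 rose and 3 fell, against 45.3% and 41.1% of all genes. The Sertoli cell list holds *Nr5a1*, *Gata4* and *Trf*, which Leydig cells or other cells of the testis are also known to express. The part of these cell types in the rise of the members was not tested, and the ratios that follow are a description.

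Relative to the mean log2 level of the Sertoli cell markers in the same sample, *Esr1* was higher by 2.96, *Rspo1* by 2.82, *Wnt4* by 2.03 and *Fst* by 1.97 in the samples labelled knockout, and *Cyp19a1* was lower by 5.52 (difference −5.52). Each gave p = 0.1 in the exact two-sided permutation test, the smallest that 3 samples against 3 allow. Without the first knockout sample *Esr1* was higher by 2.13, *Rspo1* by 1.65, *Fst* by 1.18 and *Wnt4* by 1.05. On that scale 4 of the 5 members lay higher in every knockout-labelled sample and 1 lower, against 25.3% and 36.8% of all genes. The spread within the group was wide: *Rspo1* lay at 0.30 in the first knockout sample and at −3.02 and −3.41 in the others, against between −5.13 and −4.41 in the controls. With a pseudocount of 1 in place of 0.1, 2 members remained higher. The difference of *Wnt4*, whose control level lies under 0.1 FPKM, was then 0.00.

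Relative to the mean of the Leydig cell, peritubular myoid and fibroblast markers, the rise of these members was largely gone. *Wnt4* differed by −0.29 and *Fst* by −0.36, and their groups overlapped (exact permutation p = 0.2 and 0.3). *Rspo1* differed by 0.50 (exact permutation p = 0.3) and by 0.18 without the first knockout sample, with −2.93 in the first knockout sample, above the controls, and −3.81 and −3.92 in the others, within their range of −4.28 to −3.68, which ends at −4.20 without the third sample labelled WT. *Esr1* lay above the controls in every knockout-labelled sample, with a difference of 0.64 between the group means (exact permutation p = 0.1). Its difference became −0.27 with a pseudocount of 1. *Cyp19a1* was lower on this scale too (difference −7.84, exact permutation p = 0.1). Of the 5 members 1 lay higher and 1 lower, where 4.53% of all genes lay higher and 82.4% lower. These values depend on *Actg2*, 1 of the 17 markers in the mean, which fell while most of the others rose. Without it, an alternative chosen after the values were seen, *Esr1* differed by −0.02 and *Rspo1* by −0.16, and both overlapped with the controls. *Wnt4* (−0.94) and *Fst* (−1.01) then lay below the controls in every knockout-labelled sample (exact permutation p = 1, 0.6, 0.1 and 0.1), as did 90.2% of all genes on that scale, while 1.39% lay above.

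**Figure D4:**
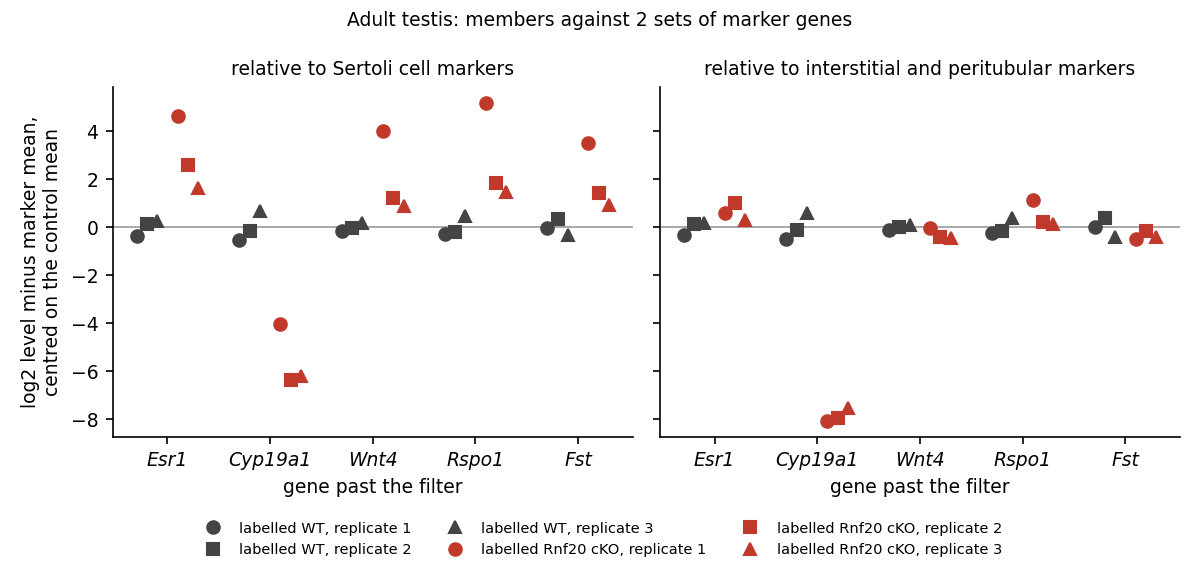
Log2 levels of the 5 members tested in adult testis minus the mean of the Sertoli cell markers (left) or of the Leydig cell, peritubular myoid and fibroblast markers (right) in the same sample, centred on the mean of the samples labelled WT, with a point for each sample. On the left *Esr1*, *Wnt4*, *Rspo1* and *Fst* lie above the controls in all 3 knockout-labelled samples and highest in the first, and on the right, where the mean includes *Actg2*, *Wnt4*, *Rspo1* and *Fst* overlap with the controls.

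Other granulosa and pre-granulosa genes went both ways in adult testis. Of 8 tested, 4 rose and 2 fell (median log2 fold change 0.67), against 40.9% and 40.6% of all genes. *Nppc* passed the filter only through samples labelled knockout, and *Lgr5* and *Irx5* only through those labelled WT. These counts therefore favour genes that differ. *Nppc*, which encodes the C-type natriuretic peptide that mural granulosa cells secrete, was listed at 0 in every sample labelled WT and had 1.04, 0.63 and 0.99 FPKM in those labelled knockout (adjusted p = 0.00363, edgeR; 0.0576 with the replicate number as a block). *Lgr5* and *Irx5*, genes of the pre-granulosa cells, fell by 6.17 and 5.40 on the log2 scale (adjusted p = 4.92e-05 and 0.000523), from between 2.37 and 2.93 and between 4.50 and 7.33 FPKM to at most 0.11 and 0.46. Like *Cyp19a1*, these 2 were present in the controls and low in every knockout-labelled sample. With 40.6% of all genes lower there, this does not point to the cells that the transcripts came from, which were not tested.

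Of 17 WNT and R-spondin signalling genes 12 rose and 4 fell (median 1.81), against 40.9% and 40.6% of all genes. *Lef1*, a transcription factor that works with beta-catenin, fell by 4.47, from between 17.46 and 19.02 FPKM to between 0.56 and 2.16, and with *Lgr5* it was among the genes with the largest changes of the list. The WNT receptor gene *Fzd2* rose by 3.24 (standard error 0.47, adjusted p = 0.000873, edgeR). The genes of the list that beta-catenin signalling is known to raise, named after their values were seen, went both ways. *Axin2* rose by 2.94, from between 0.22 and 0.37 FPKM to between 3.35 and 4.80, *Tcf7* by 2.09 and *Nkd1* by 1.38, *Rnf43* was at 0.04 (adjusted p = 0.94, edgeR), and *Znrf3* fell by 1.64 (adjusted p = 0.000256, edgeR), as did *Lef1* and *Lgr5*. The R-spondin receptor genes, named in the same way, split: *Lgr4* rose by 1.86, and *Lgr5* and *Lgr6* fell by 6.17 and 3.10.

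Of 9 genes of the activin and follistatin axis 5 rose and 2 fell (median 1.70), against 40.9% and 40.6% of all genes. *Inhba*, which encodes the activin subunit that follistatin binds, rose by 4.48 (standard error 0.30, adjusted p = 5.44e-05), from at most 0.04 FPKM to between 1.32 and 1.90, alongside *Fst*. *Smad3*, which carries the activin signal, rose by 2.37 (adjusted p = 0.000639), and *Inha* by 1.73 (adjusted p = 0.0156; 0.0578 and 0.0601 without the second and the third sample labelled WT). With total-count scaling 7 rose and 0 fell, against 8615 and 4775 of all 15919 genes.

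Of 12 genes of estrogen synthesis, clearance and action 9 rose and 0 fell (median 3.56), against 40.9% and 40.6% of all genes. *Cyp19a1* went the other way. *Star*, which brings cholesterol into steroid synthesis, rose by 4.31 (adjusted p = 0.000314), and *Sult1e1*, the estrogen sulfotransferase gene of Leydig cells, rose by 4.43 (adjusted p = 0.000303), from between 13.09 and 23.68 FPKM to between 395.21 and 1066.93. *Gper1* rose by 4.91 (standard error 1.10, adjusted p = 0.00622), with 3.23 FPKM in the first knockout sample and 0.68 and 0.86 in the others. Several of these genes are also Leydig cell genes. Genes listed for estrogen action, named after their values were seen, differed. The progesterone receptor gene *Pgr*, a known target of the estrogen receptor, had at most 0.03 FPKM in any adult sample and did not pass the filter. *Nrip1* rose by 1.80 (adjusted p = 0.000366, edgeR), and *Greb1* was at 1.61 with overlapping groups (adjusted p = 0.0788, edgeR). Whether estrogen action changed was not tested.

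Of 15 male pathway genes 9 rose and 0 fell (median 1.50), against 40.9% and 40.6% of all genes. Without the first knockout sample 14 rose and 0 fell, against 45.3% and 41.1% of all genes. *Fgfr2*, the receptor for FGF9, rose by 4.90 (adjusted p = 0.000334), *Ptgds* by 4.88 (adjusted p = 0.000288) and *Nr5a1*, the steroidogenic factor gene, by 3.76 (adjusted p = 0.000166, all from edgeR). Genes listed for either fate therefore had medians on the same side of 0 in adult testis.

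**Figure D5:**
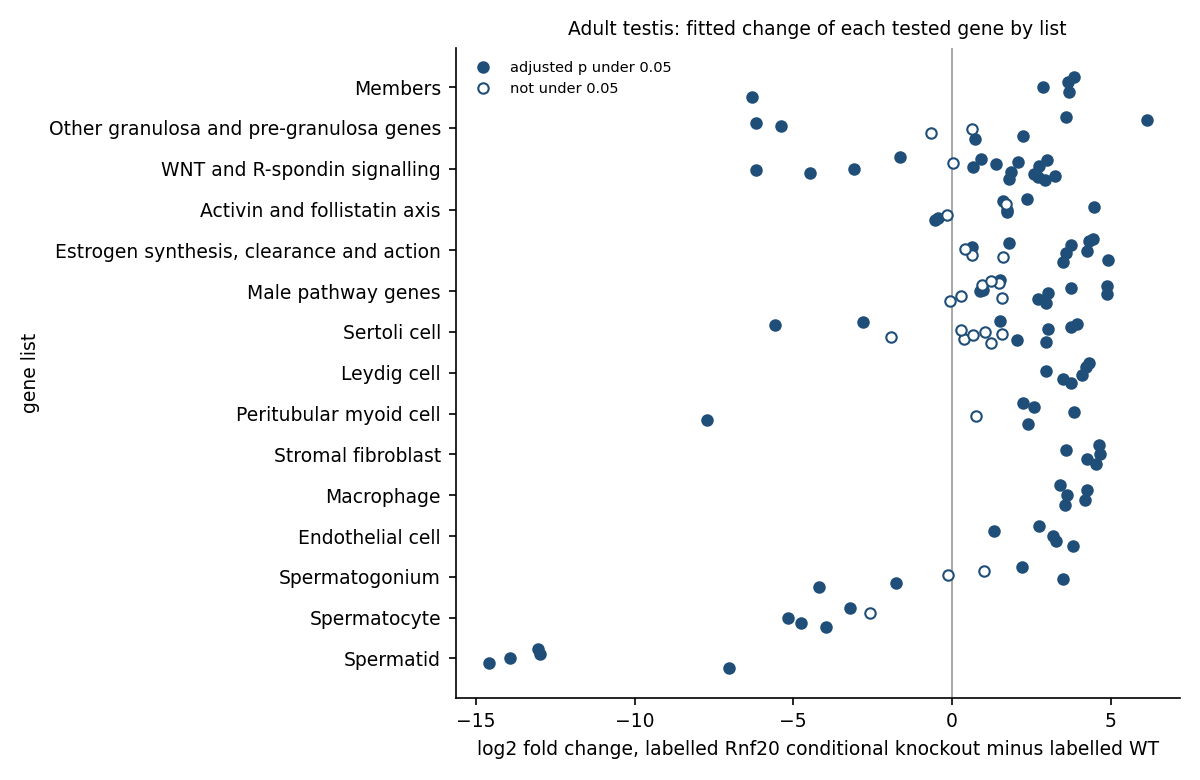
Log2 fold change of each tested gene in adult testis, by list, with filled points for an adjusted p-value under 0.05 from edgeR and open points for the rest. The Leydig cell, fibroblast and macrophage markers lie between 2.97 and 4.68, and the granulosa, WNT and male pathway genes spread more widely with lower medians (0.67, 1.81 and 1.50). *Cyp19a1*, *Lgr5*, *Irx5* and *Lef1* are among the genes below 0.

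The genes whose pattern over the 6 adult samples was most like that of a member, by the root mean square difference of log2(FPKM + 0.1) centred on the controls, were *Prrx2* (0.07) and *Podn* (0.12) for *Rspo1*, *Zfp970* (0.08) and *Fzd2* (0.09) for *Wnt4*, and *Abcb1b* and *Nlrx1* (0.09 each) for *Esr1*. *Prrx2* had 0.45, 0.42 and 0.67 FPKM in the samples labelled WT and 20.40, 6.83 and 7.02 in those labelled knockout. For *Cyp19a1* they were *Gm5347* (0.19) and *LOC115490188* (0.20). With 15919 genes to choose from, close matches are a description only.

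Ordered by mean FPKM in the Rnf20 Flox/Flox samples at day 7, *Wnt4* (17.6 ± 0.318, SD, n = 2) and *Fst* (13 ± 1.05) were followed by *Rspo1* (0.79 ± 0.127) and *Esr1* (0.755 ± 0.0919), which did not differ beyond their spread, and then by *Foxl2*, *Esr2* and *Cyp19a1*. In the Amh-Rnf20-/- samples *Fst* (23 ± 12.2) stood before *Wnt4* (11.9 ± 3.25), *Rspo1* (4.64 ± 3.42) and *Esr1* (1.63 ± 0.559), and *Esr2* and *Foxl2* overlapped. In adult testis labelled WT, *Cyp19a1* (3.1 ± 1.11, SD, n = 3) stood first, before *Rspo1* (0.643 ± 0.163) and *Esr1* (0.517 ± 0.0551), whose samples overlapped, and *Fst* (0.263 ± 0.0896), while *Esr2*, *Wnt4* and *Foxl2* overlapped in turn at the bottom. In the samples labelled knockout the order was *Rspo1* (14.6 ± 9.79) and *Esr1* (12.1 ± 3.24), which overlapped, then *Fst* (3.38 ± 0.536) and *Wnt4* (1.65 ± 0.734), while *Esr2* (0.163 ± 0.16), *Foxl2* (0.0767 ± 0.0569) and *Cyp19a1* (0.07 ± 0.0346) overlapped in turn at the bottom. The most abundant member of the adult controls was thus among the lowest 3 in the samples labelled knockout, and *Foxl2* was among the lowest 3 members in all 4 groups. The tables were normalized separately, and no level was compared between them by a test.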

How the data were processed

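Samples were grouped by their labels, and the day 7 and adult tables were analysed apart. The authors mapped reads with HISAT to GRCm38.p6 and with Bowtie2 to reference genes and quantified them with RSEM; versions and strand handling were not given in the sources used here, so a gene's reads and those of an antisense partner cannot be told apart. The deposited columns hold estimated counts (not normalized), FPKM, adjusted for gene length and depth, and TPM, which was left unused. The adult table also has 20 blank columns. Of the 3 individuals that the methods state for each day 7 group, 2 samples were analysed.

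Estimated counts were rounded and compared with edgeR 4.0.16 (quasi-likelihood test, TMM, Benjamini-Hochberg over 12880 and 15919 genes), which was tested on simulated data. Standard errors were derived from the fold change and its F statistic. The fit across all genes is printed only for the genes reported. Ratios to markers used log2(FPKM + 0.1) and exact permutation tests, which differ from fitted fold changes in scale. Alternatives were DESeq2 1.42.0, limma 3.58.1, other scalings, filters and thresholds, the replicate block, and each sample left out. Intervals of count ratios are exact conditional binomial intervals at 95%. The genes most like *Fst* in pattern are not reported here.

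The members, the 5 companion lists and the 9 marker lists were chosen with earlier results of these data known. Named were all members, *Rnf20*, *Sox9*, *Dmrt1*, and of each companion list up to 3 called genes with the largest change and without overlap, or up to 2 with the smallest p-value. Marker genes, *Axin2*, *Tcf7*, *Nkd1*, *Rnf43*, *Znrf3*, *Lgr4*, *Lgr6*, *Nrip1* and *Greb1* in adult testis, *Ptgds* at day 7 and *Pgr* fall outside that rule.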

Additional observations from a re-analysis of the deposited data

Results flagged for a closer look

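Of 12378 genes tested in both tables, 2259 lay apart in opposite directions, with all knockout samples on one side of the controls at day 7 and on the other in adult testis. Among the genes named by the rule given above 9 did so, and the difference between the tables was not tested. That rule picks companion genes by their change or p-value, so the 9 are not set against the number over all genes. *Tcf7*, *Gata4*, *Actg2*, *Rhox5* and *Nrip1*, mentioned outside that rule, also did so. Their log2 fold changes were −0.78, −0.28, 0.81, 1.13 and −0.34 at day 7 and 2.09, 3.03, −7.73, −5.57 and 1.80 in adult testis. At day 7 the value of *Rhox5* rests on 3 and 2 counts in the Rnf20 Flox/Flox cells against 6 and 5 in the Amh-Rnf20-/- cells. The log2 fold changes of the member *Wnt4* were −0.52 at day 7 and 3.86 in adult testis. Those of *Foxo1* were −0.42 and 2.23, of *Amhr2* −1.19 and 0.72, and of *Lgr4* −0.47 and 1.86. Those of *Fstl3* were −0.85 and 1.73, of *Inha* −1.40 and 1.73, and of *Wt1* −0.49 and 1.50. Those of *Amh* were −0.69 and 2.95, and of *Nr5a1* −0.25 and 3.76. The day 7 samples are Sertoli cells and the adult samples whole testis, so age and tissue cannot be told apart.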

How the results depend on the processing

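At day 7 the count of genes called by edgeR, 0 (1997 at an unadjusted p-value under 0.05), was 581 with DESeq2 and between 0 and 5136 with a sample left out; that of members, 0, was 1 with DESeq2 and between 0 and 4 with a sample left out. Without a knockout sample the spread comes from the controls alone, which differ little. In adult testis 12969 genes were called, 7432 at the study's thresholds, and 5 members were called, also under each alternative except those thresholds and a mean FPKM of at least 1, which leaves *Wnt4* untested, with 4 each. The replicate number as a block changed no call of a member. Samples with the same number did not deviate together (correlations of 0.04 at day 7 and at most 0.02 in adult testis). The count of adult members higher than controls relative to Sertoli cell markers, 4, was 2 with log2(FPKM + 1); relative to the interstitial and peritubular markers, 1, it was 0 with log2(FPKM + 1), 0 without *Actg2* among the markers, chosen after seeing the data, and between 1 and 2 with a sample left out. At day 7 that count, 3, was 1 with the interstitial and peritubular markers as reference, chosen after seeing the data. In adult testis *Rnf20* was −0.08 with DESeq2 and −0.08 with median-ratio scaling but called higher with total-count scaling (0.97) and limma (0.97 and 0.84 on log2(FPKM + 0.1) and log2(FPKM + 1)), and *Dmrt1* −0.44 with the replicate block and between −0.18 and 0.98 with a sample left out; the cause was not tested. Leaving *Nr5a1*, *Gata4* and *Trf* out of the Sertoli cell markers, also chosen after seeing the data, kept both counts at 3 and 4. Depth limits *Foxl2*, *Esr2* and, at day 7, *Cyp19a1*.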
